A study of Rattus norvegicus with 30 samples.

Results

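The epithelial sodium channel (ENaC) and the mineralocorticoid axis that controls it were followed through 10 genes in cultured rat collecting duct cells. The genes were the channel subunit genes Scnn1a, Scnn1b and Scnn1g, the channel-activating protease gene Prss8, the regulators Nedd4l and Sgk1, the steroid receptor genes Nr3c2 and Nr3c1, the steroid-metabolising enzyme gene Hsd11b2 and the steroid target gene Tsc22d3. These members and the gene lists used below were chosen with earlier results of these data known. Their counts beside the share of all genes are therefore descriptions and not independent tests. Members were matched by gene symbol on the array annotation, and 10 of 10 were found among 14506 measured genes, each with 1 probe set. All samples were primary cultures of rat inner medullary collecting duct cells, and total RNA of each was hybridised to 1 of 30 Affymetrix arrays, 3 per group. In 3 steady groups the cells were grown at 300, 600 or 900 mosmol/kg. A further 4 groups were grown at 300 and sampled 3, 12, 24 or 48 h after a step to 600 mosmol/kg. Another 2 were grown at 600 and sampled 12 or 24 h after a step to 900, and the last was grown at 900 and sampled 24 h after a return to 300 mosmol/kg. The treatment field gives 5 µM cyclosporin A, a calcineurin inhibitor, for every sample, while the titles name only osmolality and time, so which cultures received it is not settled, and the labels give no group without it. Neither a strain, an age nor the steroid content of the medium is given in the sources used here.

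ENaC carries sodium from the tubular fluid into collecting duct principal cells, and its subunits assemble into a channel that proteases can activate by cleavage. Aldosterone binds the mineralocorticoid receptor, the product of Nr3c2, which raises transcription of Scnn1a and Sgk1 in the aldosterone-sensitive nephron. The kinase SGK1 phosphorylates the ubiquitin ligase NEDD4-2, the product of Nedd4l, and so keeps it from removing ENaC from the membrane. Hsd11b2 encodes the enzyme that inactivates glucocorticoids and thereby reserves the mineralocorticoid receptor for aldosterone. In the inner medulla, extracellular osmolality is high and variable, and SGK1 is known as a kinase whose gene responds to cell volume and tonicity.

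The values are deposited log2 values, so a difference of 1 is a doubling of signal. They are compared below only within a gene, because probes differ in brightness. A gene is called changed where the adjusted p (limma, Benjamini-Hochberg over all 14506 genes) is below 0.05. Log2 changes are given ± the standard error of the fit, with n = 3 arrays per group. Whether the replicates were grown from different animals or in different dishes is not in the labels, so the p-values speak of array-to-array spread that could be purely technical. In whole-culture RNA, fewer cells of a type and less RNA per cell cannot be told apart.

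**Figure D1:**
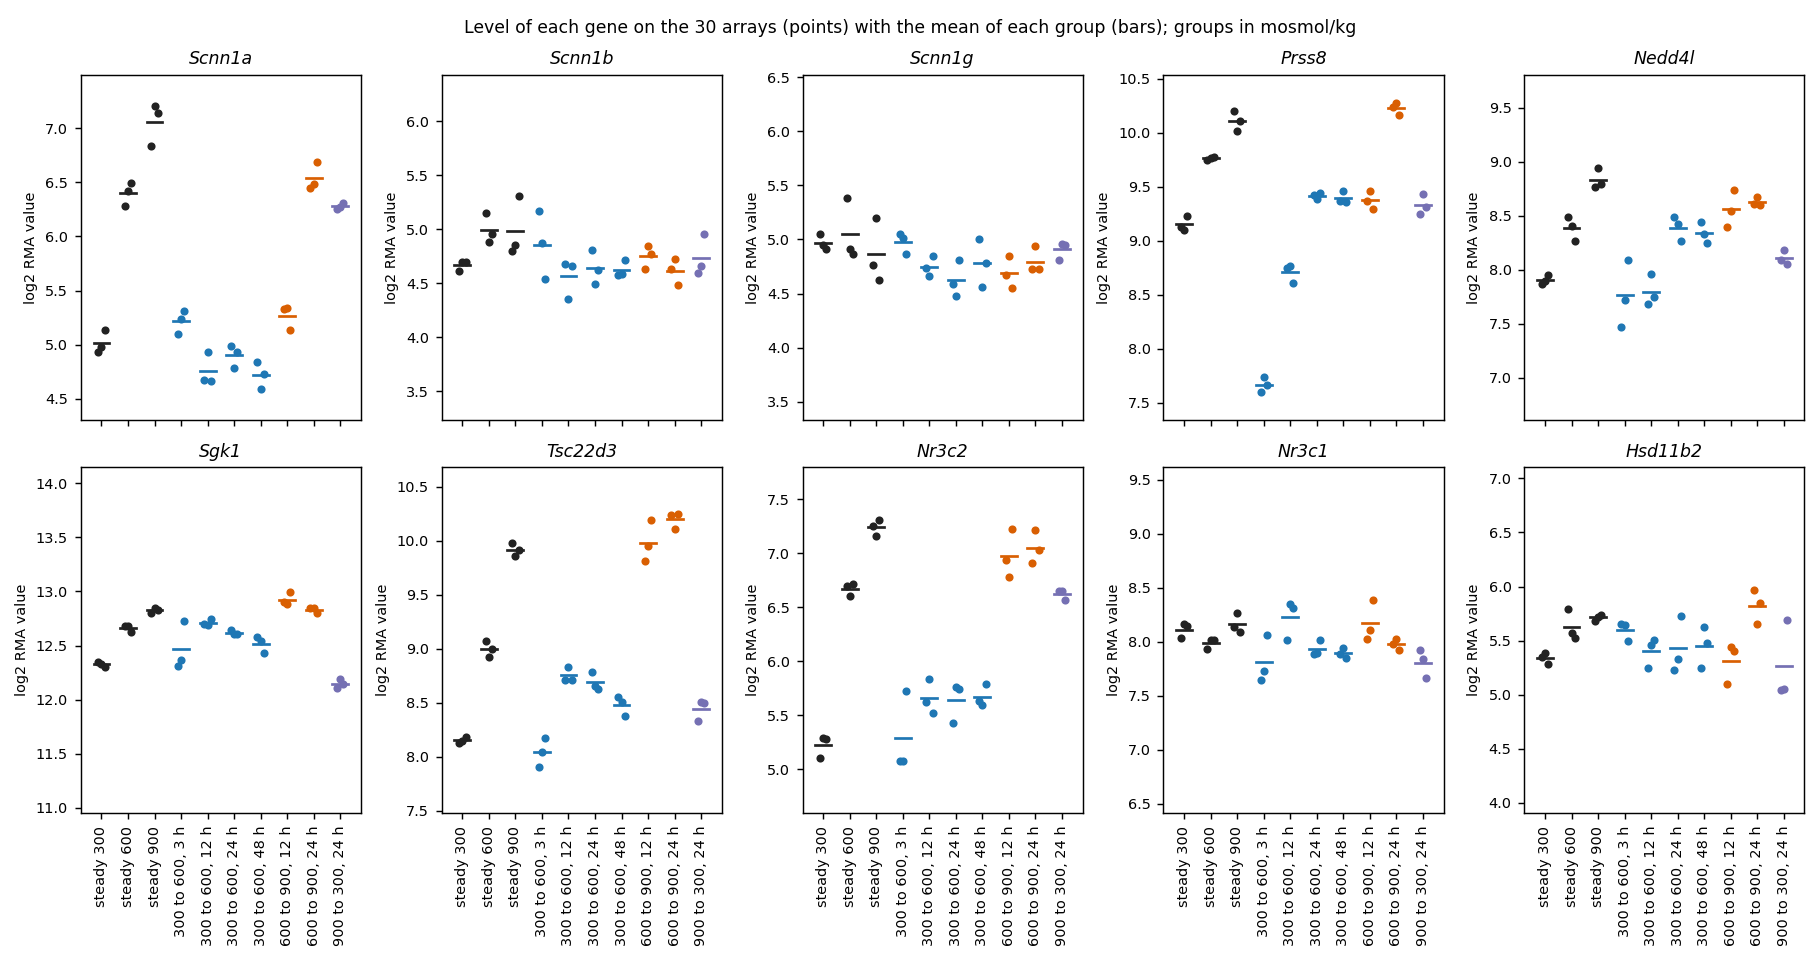
Log2 level (y axis, 3.2 units high in every panel) of each of the 10 genes on the 30 arrays, by group (x axis, mosmol/kg and hours), with points for arrays and bars for group means of 3. Scnn1a, Nr3c2, Tsc22d3 and Prss8 spread over several groups that do not overlap, while Scnn1b, Scnn1g, Hsd11b2, Nr3c1 and Sgk1 stay within a narrow band. Within that band the steady groups of Sgk1 do not overlap.

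Array medians lay between 5.63 and 5.76, and values of 2 arrays of the same group correlated at 0.991 to 0.998 across genes. Replicate 3 of the 3 h group stood apart, with median absolute differences of 0.205 and 0.198 from its partners, which differed by 0.122 from each other. The mean level of 8 epithelial markers lay between 10.84 and 11.36 on all arrays, with Epcam at 11.60 ± 0.03 (SD, n = 3) at 300 and 11.91 ± 0.03 (SD, n = 3) at 900 mosmol/kg. From 300 to 900, 4 of these 8 were called higher and 2 lower, against 42.4% of all genes called. At 12 h of the step to 900, 1 was higher and 5 were lower than at 600, against 37.8%. The mean of 8 principal cell markers was 6.12 to 6.27 at 300, 8.96 to 9.38 at 600 and 10.38 to 10.48 at 900 mosmol/kg, so this defining set was low in the 300 cultures. It lay between 5.86 and 6.78 over all times after the step to 600 and was 8.46 to 8.53 after the return to 300. Aqp2, the vasopressin-regulated water channel of principal cells, had 5.61 ± 0.49 (SD, n = 3) at 300 and 12.04 ± 0.07 (SD, n = 3) at 900 mosmol/kg. Fibroblast markers (9 genes) averaged 8.43 to 8.47 at 300, 6.31 to 6.35 at 900 and 6.21 to 6.30 after the return. Leukocyte markers (8 genes) averaged 8.19 to 8.24, 6.83 to 6.98 and 5.92 to 6.03 in the same groups. Loop and proximal tubule markers (10 genes) averaged 4.91 to 5.06 at 300, 5.75 to 5.85 at 600 and 6.04 to 6.07 at 900 mosmol/kg. Of these, 4 were called higher at 900 than at 300, against 20.2% higher over all genes. The other 6 were not called and the median change was 0.13, so part of the set carried the rise of its mean. Intercalated cell markers (8 genes) averaged 5.03 to 5.14 at 300, 4.52 to 4.74 at 600 and 4.65 to 4.78 at 900 mosmol/kg. From 300 to 900, 2 of them were called higher and 2 lower, against 42.4% of all genes called. Over all arrays, intercalated cell markers averaged 4.51 to 5.35 and endothelial markers 7.20 to 8.11. The mean levels of the principal cell, loop and proximal tubule, fibroblast and leukocyte markers moved with steady osmolality, as several of the 10 genes did. Their part in the results below was not tested.

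Of the 10 genes, 9 passed the moderated F test of limma across the 10 groups, a share to be read against 73.7% of all genes, and Scnn1g did not (adjusted p = 0.0916). Leaving out single arrays gave 8 to 10 genes. Between the steady cultures the called genes were all higher at the higher osmolality. From 300 to 600, 6 of 10 were called, all higher, where 27.1% of all genes were called and 13.7% were higher. From 600 to 900, 5 of 10 were called against 24.2% of all genes. From 300 to 900, 7 of 10 were called, all higher, against 42.4% of all genes called and 20.2% higher. After the return to 300, 8 of 10 were lower than at 900, against 37.7% called and 18.5% lower over all genes, and 5 differed from the steady 300 cultures (4 higher and 1, Nr3c1, lower), against 42.6%.

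After the step from 300 to 600, the count of called genes at 3 h depended on the scaling and on single arrays. At 3 h, 2 of 10 differed from the 300 cultures, against 41.6% of all genes. This count was 1 without replicate 2 or 3 at 300 or replicate 2 at 3 h, and 4 without replicate 3 at 3 h, and it was 5 under median centring. At 12 h 5 were called against 34.5%, at 24 h 5 against 22.3% and at 48 h 5 against 21.6%. The 48 h count was 3 without replicate 2 at 300 or replicate 2 or 3 at 48 h. Between successive times, 6 genes changed from 3 to 12 h against 40.9%, 3 from 12 to 24 h against 27.0% and 0 from 24 to 48 h against 2.79% (limma). At an unadjusted p below 0.05, the last count was 1 (Tsc22d3). At 48 h, 4 genes were still lower than in cultures grown at 600, against 22.0% called and 12.5% lower over all genes.

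After the step from 600 to 900, 5 of 10 genes were called at 12 h against 37.8% of all genes, and 4 at 24 h against 25.9%. The 24 h count was 2 without replicate 1 or 3 at 600 or replicate 9 at 24 h. From 12 to 24 h, 3 genes rose, against 32.4% called and 21% higher over all genes. At 24 h, 2 genes differed from cultures grown at 900 against 18.3%, and this count was 1 without replicate 2 or 3 at 900 or replicate 1 or 9 at 24 h. The count of 5 after the return against the 300 cultures was 3 without replicate 2 at 300 or replicate 9 of the return. Centring every array on its median moved the median change of all genes from -0.04 to 0.13 at 3 h, from -0.01 to 0.16 at 12 h and from -0.03 to 0.12 at 12 h of the step to 900. The share of lower genes among those called at 3 h was 70.9% here and 36.6% to 52.1% under 3 other scalings, and at 12 h it was 65.5% against 29.9% to 57.5%.

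Scnn1a, which encodes the alpha subunit needed for the channel to form, followed the osmolality in which the cells had been grown. Its log2 level was 4.93, 4.98 and 5.13 at 300, 6.28, 6.42 and 6.50 at 600, and 6.83, 7.21 and 7.14 at 900 mosmol/kg. The 3 steady groups did not overlap. It was 2.61-fold higher at 600 than at 300 (log2 change 1.38 ± 0.10, adjusted p = 5.14e-12) and rose by a further 0.66 ± 0.10 to 900 (adjusted p = 7.77e-06), which made 4.13-fold from 300 to 900. Its mean at 300, 5.02, was below the 30th percentile of gene means, 5.05, a dim range in which an array can understate folds.

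The step to 600 mosmol/kg did not bring Scnn1a to the level of cultures grown there. Its values were 5.10, 5.23 and 5.31 at 3 h, 4.67, 4.93 and 4.67 at 12 h, 4.99, 4.78 and 4.93 at 24 h, and 4.84, 4.59 and 4.73 at 48 h. All 12 arrays lay below every array of the cultures grown at 600. At 48 h the level was 1.68 ± 0.10 lower than in cultures grown at 600 (adjusted p = 1.16e-13). Against the 300 cultures, the 24 h difference was -0.11 (95% interval -0.32 to 0.09, adjusted p = 0.497). Slightly lower levels were called at 12 h (-0.26 ± 0.10, adjusted p = 0.0481) and 48 h (-0.30 ± 0.10, adjusted p = 0.0361). The means at 12, 24 and 48 h, 4.76, 4.90 and 4.72, were also in the dim range below 5.05. The 12 h call was lost without replicate 2 or 3 at 300 or replicate 1 or 3 at 12 h (-0.28 to -0.20), and the 48 h call without replicate 2 or 3 at 300 or replicate 2 or 3 at 48 h (-0.31 to -0.23). Under median centring the 12 h difference was -0.09 (adjusted p = 0.468), and under the 3 other scalings the 48 h difference was -0.28 to -0.24, not past the threshold. Principal cell markers averaged 6.12 to 6.27 at 300, 6.51 to 6.76 at 3 h, 5.86 to 5.95 at 12 h, 6.29 to 6.44 at 24 h and 6.61 to 6.78 at 48 h. At 48 h, 5 of these 8 markers were called higher than at 300 and 0 lower. Over all genes, 21.6% were called and 9.57% were higher.

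The step from 600 to 900 gave a fall and a recovery of Scnn1a. The level was 5.33, 5.34 and 5.14 at 12 h and 6.44, 6.48 and 6.69 at 24 h. The 12 h arrays lay below all arrays of the cultures grown at 600 and 900, and the 24 h arrays overlapped those grown at 600. At 12 h Scnn1a had fallen 2.19-fold (-1.13 ± 0.10, adjusted p = 4.32e-10), and it rose by 1.27 ± 0.10 from 12 to 24 h (adjusted p = 8.92e-11). At 24 h it differed by 0.14 from the 600 cultures (95% interval -0.07 to 0.35, adjusted p = 0.356) and remained 0.52 ± 0.10 below the 900 cultures (adjusted p = 3.80e-04). Principal cell markers averaged 9.03 to 9.09 at 12 h and 9.92 to 9.98 at 24 h.

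After 24 h back at 300, Scnn1a was 6.25, 6.27 and 6.31, tightly grouped between the cultures grown at 300 and at 900. It had fallen by 0.78 ± 0.10 from 900 (adjusted p = 3.39e-07) and stood 1.26 ± 0.10 above cultures grown at 300 (adjusted p = 1.57e-11). In the order of its 10 group means, the groups from the 48 h step up to the 12 h step to 900 overlapped with their neighbours, a gap followed, and the return, 600 and 24 h step to 900 groups overlapped below 900.

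Scnn1b and Scnn1g encode the beta and gamma subunits, which raise the current of the assembled channel, and both probe sets were dim. Their means over all arrays, 4.74 and 4.84, were below the 30th percentile of gene means, 5.05. Scnn1b ranged from 4.35 to 5.31 over the 30 arrays. Its 300 arrays read 4.61, 4.69 and 4.70, its 600 arrays 5.15, 4.88 and 4.96, and its 900 arrays 4.80, 4.85 and 5.31. The 300 arrays thus lay just below the others. The difference from 300 to 600 was 0.33 (95% interval 0.05 to 0.61, adjusted p = 0.0765) and to 900 it was 0.32 (95% interval 0.04 to 0.60, adjusted p = 0.0600), neither past the threshold. The 600 difference passed under quantile normalization (adjusted p = 0.0457) and cyclic loess (adjusted p = 0.0485), and the 900 difference under all 3 other scalings (adjusted p = 0.0389 to 0.0490). The 900 difference also passed without replicate 1 (0.41) or 2 (0.39) at 900 and was 0.16 without replicate 3.

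Scnn1b was called in 1 comparison, being 0.38 ± 0.14 lower 24 h after the step to 900 than at 600 (adjusted p = 0.0368). This call was lost without replicate 1 or 3 at 600 or replicate 1 or 9 at 24 h, with values from -0.40 to -0.31. Scnn1g ranged from 4.47 to 5.38. It differed by 0.08 between 600 and 300 (95% interval -0.19 to 0.36) and by -0.10 between 900 and 300 (95% interval -0.38 to 0.17). Its 1 call was at 12 h of the step to 900, -0.36 ± 0.14 (adjusted p = 0.0350), and it was lost without replicate 1 at 600 (-0.20) or replicate 1 (-0.35) or 9 (-0.29) at 12 h.

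**Figure D2:**
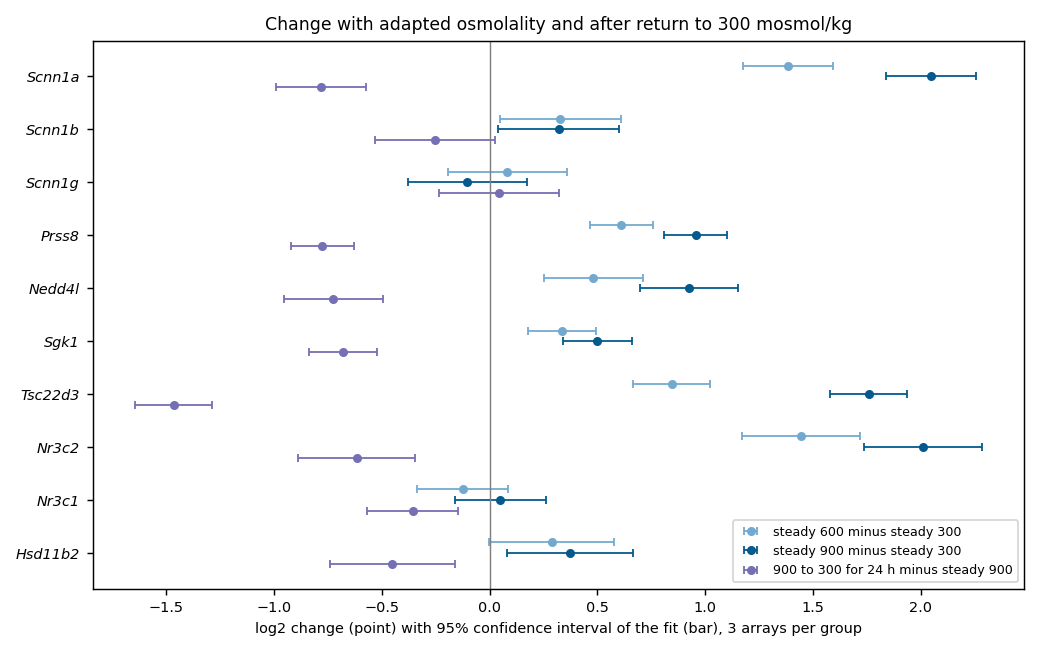
Log2 change (x axis) of each gene (y axis) from 300 to 600, from 300 to 900 and from 900 back to 300 mosmol/kg for 24 h, as the fitted change with its 95% confidence interval (3 arrays per group). Scnn1a and Nr3c2 have the largest steady changes of the 10 genes, with 2.05 and 2.01 from 300 to 900, and Tsc22d3 has the largest fall after the return, -1.47.

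Prss8 encodes prostasin, a membrane-anchored serine protease that activates ENaC. Its level was 9.13, 9.10 and 9.23 at 300, 9.75, 9.77 and 9.77 at 600, and 10.20, 10.02 and 10.11 at 900 mosmol/kg. Each steady group lay above the one before. Prss8 rose by 0.61 ± 0.07 from 300 to 600 (adjusted p = 5.63e-08) and by 0.35 ± 0.07 from 600 to 900 (adjusted p = 4.04e-04).

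Prss8 fell first and rose later after the step to 600. At 3 h its arrays read 7.60, 7.74 and 7.66, the lowest of any group, and at 12 h they read 8.75, 8.76 and 8.61. At 24 h they were 9.43, 9.39 and 9.44 and at 48 h 9.37, 9.46 and 9.36. The 3 h and 12 h arrays lay below the 300 arrays and the later ones above them. The 3 h level was 2.79-fold lower than at 300 (-1.48 ± 0.07, adjusted p = 4.59e-15), the 12 h level 0.44 ± 0.07 lower (adjusted p = 1.24e-05) and the 24 h level 0.27 ± 0.07 higher (adjusted p = 0.00615). The increase of 0.24 at 48 h (adjusted p = 0.0125) was lost without replicate 2 at 300 (0.22) or at 48 h (0.21). At 48 h Prss8 was still 0.37 ± 0.07 below cultures grown at 600 (adjusted p = 2.16e-04). Without replicate 3 at 3 h the call of a 3 h fall held.

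The step from 600 to 900 repeated this order for Prss8 at a higher level. Its arrays read 9.37, 9.46 and 9.29 at 12 h and 10.24, 10.27 and 10.17 at 24 h. It was lower than at 600 by 0.39 ± 0.07 at 12 h (adjusted p = 5.61e-05) and higher by 0.47 ± 0.07 at 24 h (adjusted p = 8.11e-06). The 24 h level differed by 0.12 from cultures grown at 900 (95% interval -0.03 to 0.27). After the return, the arrays read 9.25, 9.43 and 9.31, below all of those grown at 600 and 900. That was 0.78 ± 0.07 below 900 (adjusted p = 6.15e-10). An excess of 0.18 over 300 (adjusted p = 0.0422) was lost without replicate 1 or 2 at 300 or replicate 2 or 9 of the return (0.13 to 0.19).

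Among 10 other proteases that can cleave ENaC and their inhibitors, 4 rose and 1 fell from 300 to 600, with a median change of 0.16 against 0.01 for all genes, of which 27.1% were called. From 300 to 900, 5 rose and 1 fell (median 0.36), against 42.4% called. After the return 6 fell from 900 (median -0.43 against -0.02 for all genes), against 18.5% lower. Tmprss2, a transmembrane serine protease, rose by 1.83 ± 0.12 to 600 and by 2.74 ± 0.12 to 900 and fell by 1.77 ± 0.12 after the return (adjusted p at most 1.23e-12 in limma). Furin, the Golgi protease that cleaves the alpha and gamma subunits, rose by 0.71 ± 0.10 to 600 (adjusted p = 1.22e-06). Plau, the urokinase gene, rose by 0.72 ± 0.07 to 900 (adjusted p = 2.52e-10) and fell by 1.11 ± 0.07 after the return (adjusted p = 1.25e-13). Serpine2, which encodes the protease inhibitor nexin-1, was higher at 600 by 0.82 ± 0.11 (adjusted p = 7.49e-07) and lower at 900 than at 300 by 0.84 ± 0.11 (adjusted p = 2.02e-07).

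Nedd4l, the ubiquitin ligase gene, rose with steady osmolality. Its arrays read 7.87, 7.90 and 7.95 at 300, 8.49, 8.41 and 8.27 at 600, and 8.76, 8.94 and 8.80 at 900 mosmol/kg. The groups did not overlap. The change was 0.48 ± 0.11 to 600 (adjusted p = 0.00123) and 0.92 ± 0.11 to 900 (adjusted p = 4.60e-08). After the step to 600 the arrays read 7.47, 7.72 and 8.09 at 3 h and 7.68, 7.96 and 7.75 at 12 h, then 8.48, 8.42 and 8.26 at 24 h and 8.44, 8.33 and 8.25 at 48 h.

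Nedd4l thus reached the 600 level between 12 and 24 h. It rose by 0.59 ± 0.11 between those times (adjusted p = 1.39e-04), and the 48 h level differed from the 600 cultures by -0.05 (95% interval -0.28 to 0.18). The 3 h difference from 300, -0.15 (adjusted p = 0.314), was -0.31 (adjusted p = 0.0162) without replicate 3 at 3 h, the array that stood apart. After the step to 900 its arrays read 8.39, 8.55 and 8.74 at 12 h and 8.61, 8.67 and 8.60 at 24 h. The 12 h difference of 0.17 from 600 (adjusted p = 0.251) was 0.27 to 0.33 under the 3 other scalings, past the threshold in each. After the return the arrays read 8.09, 8.18 and 8.05, 0.73 ± 0.11 below 900 (adjusted p = 4.86e-06) and between those grown at 300 and at 600.

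Sgk1, the kinase gene, was near the top of the array's scale, with 12.11 to 12.99 over the 30 arrays where the highest value of any probe set was 13.88. The arrays read 12.35, 12.33 and 12.30 at 300, 12.68, 12.68 and 12.62 at 600, and 12.80, 12.85 and 12.83 at 900 mosmol/kg. The spread within groups was small and the groups did not overlap. Sgk1 rose by 0.33 ± 0.08 to 600 (adjusted p = 0.00120) and by 0.50 ± 0.08 to 900 (adjusted p = 3.31e-06). The 600 to 900 difference of 0.17 (95% interval 0.01 to 0.32, adjusted p = 0.135) did not pass here, but did under median centring (adjusted p = 0.0443) and cyclic loess (adjusted p = 0.00977), and was 0.04 under quantile normalization.

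After the step to 600, Sgk1 arrays read 12.31, 12.37 and 12.72 at 3 h, 12.70, 12.69 and 12.74 at 12 h, 12.64, 12.61 and 12.60 at 24 h, and 12.58, 12.54 and 12.43 at 48 h. Replicate 3 at 3 h was far above its partners. The increase over 300 was called at 12 h (0.39 ± 0.08, adjusted p = 2.25e-04) and 24 h (0.29 ± 0.08, adjusted p = 0.00524) and not at 48 h (0.19, adjusted p = 0.0781), where it passed under the 3 other scalings (adjusted p = 0.0142 to 0.0196). At 3 h it was 0.14 (adjusted p = 0.148), and 0.29 to 0.35 under the 3 other scalings, past the threshold in each. It was also past it without replicate 1 at 3 h (0.22, adjusted p = 0.0338). The rise from 3 to 12 h, 0.24 ± 0.08 (adjusted p = 0.0122), was lost under quantile normalization (0.10) and cyclic loess (0.08) and without replicate 1 (0.17) or 2 (0.19) at 3 h, and the 3 h difference was 0.01 without replicate 3.

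Sgk1 at 12 h of the step to 900 read 12.90, 12.88 and 12.99, the highest group of all, 0.26 ± 0.08 above 600 (adjusted p = 0.00713). At 24 h it read 12.85, 12.85 and 12.80, a difference of 0.01 from cultures grown at 900 (95% interval -0.15 to 0.17). After the return it read 12.11, 12.19 and 12.14, below every other array of the series. The fall from 900 was 0.68 ± 0.08 (adjusted p = 3.37e-08), while the difference of -0.18 from 300 (95% interval -0.34 to -0.02) did not pass after adjustment (adjusted p = 0.0608).

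Sgk1 and Tsc22d3, the steroid-inducible gene described further on, followed each other across the groups, with a Pearson r of 0.82 over the 10 group means, which come from the same arrays. Higher values were found for Nr3c2 with Tsc22d3 (0.86), Nedd4l with Prss8 (0.85) and Nedd4l with Tsc22d3 (0.83). RefSeq windows of the GRCr8 assembly were matched by symbol for 6 of the 10 genes, 11 windows in all. The 250 bases before each start were searched on both strands for the corticosteroid receptor hexamer TGTTCT, the palindromic receptor element built of this hexamer and its reverse complement around 3 free bases, a looser form of that palindrome with fewer fixed bases, the NFAT core TGGAAA and the cAMP element TGACGTCA. The hexamer lies within the palindrome, and the last 2 motifs are separate. Of all 33465 windows of this length, 17.5% held the hexamer, 0.012% the palindrome, 0.374% its looser form, 19.7% the NFAT core and 1.59% the cAMP element. Only the NFAT core was found, in 2 of the 11 windows, a share near the 19.7% over all windows. It occurred once in 1 of 3 windows of Sgk1 and once in 1 of 3 windows of Tsc22d3. These are shown because they alone held a match, and the lines below give these 2 windows from 5′ to 3′ on the minus strand, with that match in capitals, for Sgk1 at chr1:24805571-24805820 and for Tsc22d3 at chrX:109010035-109010284.
Sgk1: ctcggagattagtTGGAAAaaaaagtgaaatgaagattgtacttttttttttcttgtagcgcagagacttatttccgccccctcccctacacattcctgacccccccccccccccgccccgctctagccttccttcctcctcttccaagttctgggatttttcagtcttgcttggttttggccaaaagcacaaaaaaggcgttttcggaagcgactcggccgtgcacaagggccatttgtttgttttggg
Tsc22d3: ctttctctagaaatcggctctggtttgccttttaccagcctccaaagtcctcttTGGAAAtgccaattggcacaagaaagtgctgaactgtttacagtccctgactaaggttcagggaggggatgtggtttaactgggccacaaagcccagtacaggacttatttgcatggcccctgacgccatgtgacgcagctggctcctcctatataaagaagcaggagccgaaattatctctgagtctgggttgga
The match starts 237 bases before the Sgk1 start and 196 bases before the Tsc22d3 start. These letters describe the windows only, and whether a factor binds there was not measured.

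Of 15 measured regulators of ENaC trafficking and of the kinases around SGK1, 3 rose and 1 fell from 300 to 600 (median 0.02 against 0.01 for all genes), a share near the 27.1% called over all genes. The 1 lower gene was lost without replicate 2 or 3 at 300 or any of the 3 arrays at 600. From 300 to 900, 7 rose and 3 fell (median 0.06), against 42.4% called over all genes. After the return 1 rose and 10 fell from 900 (median -0.25 against -0.02), against 37.7% called, and 5 fell without replicate 2 at 900 or replicate 9 of the return. Stk39, which encodes the kinase SPAK of the WNK pathway, rose by 1.14 ± 0.08 to 600 and 1.72 ± 0.08 to 900 (adjusted p = 3.03e-12 and 9.36e-17) and fell by 0.81 ± 0.08 after the return (adjusted p = 4.02e-09). Wnk4 rose by 0.59 ± 0.09 to 600 (adjusted p = 2.96e-06) and by 1.11 ± 0.09 to 900 (adjusted p = 5.79e-12). Cnksr3, an aldosterone-induced scaffold that holds SGK1 and NEDD4-2 near the channel, rose by 0.85 ± 0.11 within 3 h of the step to 600 and by 1.25 ± 0.11 at 12 h (adjusted p = 7.03e-07 and 4.31e-10). Stk39 was higher at 12 h by 1.29 ± 0.08 (adjusted p = 6.45e-13). Sgk3, Rictor and Klhl3 were not analysed here.

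Nr3c2, the mineralocorticoid receptor gene, rose strongly with steady osmolality. Its arrays read 5.11, 5.29 and 5.28 at 300, 6.70, 6.60 and 6.72 at 600, and 7.26, 7.16 and 7.31 at 900 mosmol/kg. The groups lay far apart for their spread. It was 1.44 ± 0.13 higher at 600 than at 300 (adjusted p = 5.97e-10) and 0.57 ± 0.13 higher at 900 than at 600 (adjusted p = 0.00159), 4.03-fold in all.

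The step to 600 brought Nr3c2 to an intermediate level. The arrays read 5.08, 5.08 and 5.72 at 3 h, 5.62, 5.84 and 5.52 at 12 h, 5.43, 5.77 and 5.74 at 24 h, and 5.63, 5.60 and 5.79 at 48 h. From 12 h on every array lay above the 300 arrays and below the 600 arrays. The excess over 300 was 0.43 at 12 h, 0.42 at 24 h and 0.45 at 48 h, each ± 0.13 (adjusted p = 0.0118, 0.0224 and 0.0151). Each call was lost without replicate 1 at 300 (0.37, 0.36 and 0.39 in turn). The calls were also lost without replicate 2 at 12 h (0.34), replicate 2 (0.36) or 3 (0.37) at 24 h and replicate 3 at 48 h (0.39). At 48 h Nr3c2 was 1.00 ± 0.13 below cultures grown at 600 (adjusted p = 8.41e-07). The rise from 3 to 12 h, 0.37 ± 0.13 (adjusted p = 0.0279), was lost without replicate 1 or 2 at 3 h (0.26 each) or replicate 2 at 12 h (0.28).

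After the step from 600 to 900, Nr3c2 read 6.93, 6.78 and 7.22 at 12 h and 6.91, 7.21 and 7.03 at 24 h, all above the 600 arrays. The 12 h difference of 0.30 (adjusted p = 0.0742) was 0.35 to 0.46 under the 3 other scalings and 0.40 without replicate 2 at 12 h, past the threshold in each. The 24 h increase of 0.38 ± 0.13 (adjusted p = 0.0355) was lost without any 1 of the 600 arrays or replicate 2 or 9 at 24 h (0.30 to 0.40). The return left it at 6.65, 6.65 and 6.57, which overlapped cultures grown at 600. That was 0.62 ± 0.13 below 900 (adjusted p = 4.06e-04) and 1.39 ± 0.13 above 300 (adjusted p = 5.62e-10).

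Nr3c1, the glucocorticoid receptor gene, moved within a narrow range, from 7.64 to 8.38 over all arrays. Its arrays read 8.03, 8.16 and 8.14 at 300, 7.93, 8.02 and 8.02 at 600, and 8.14, 8.27 and 8.09 at 900 mosmol/kg. The differences from 300 were -0.12 at 600 (95% interval -0.34 to 0.09) and 0.05 at 900 (95% interval -0.16 to 0.26). At 3 h of the step to 600 it read 7.64, 7.73 and 8.06, and at 12 h 8.01, 8.35 and 8.31. The lower 3 h level (-0.30 ± 0.10, adjusted p = 0.0196) was -0.13 to -0.08 under the 3 other scalings, none past the threshold. It was also lost without replicate 2 or 3 at 300 or replicate 1 or 2 at 3 h (-0.29 to -0.22). The rise of 0.41 ± 0.10 from 3 to 12 h (adjusted p = 0.00175) held in all 15 alternatives.

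Nr3c1 fell by 0.29 ± 0.10 from 12 to 24 h (adjusted p = 0.0340), a call lost without replicate 2 or 3 at 12 h or replicate 1 or 2 at 24 h (-0.27 to -0.23). At 12 h of the step to 900 the difference of 0.19 from 600 (adjusted p = 0.171) was 0.27 to 0.34 under the 3 other scalings, past the threshold in each. After the return its arrays read 7.92, 7.84 and 7.66. They were 0.36 ± 0.10 below 900 (adjusted p = 0.00656) and 0.31 ± 0.10 below 300 (adjusted p = 0.0170). The first call was lost without replicate 9 of the return (-0.28). The second was lost without that array (-0.23) or replicate 2 (-0.28) or 3 (-0.29) at 300.

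Hsd11b2, the gene of the glucocorticoid-inactivating enzyme, was low and changed little, with 5.04 to 5.96 over all arrays. Its arrays read 5.35, 5.39 and 5.29 at 300, 5.79, 5.57 and 5.52 at 600, and 5.68, 5.72 and 5.74 at 900 mosmol/kg. The 300 arrays were the lowest of the steady groups. The 600 difference of 0.29 did not pass (95% interval -0.00 to 0.58, adjusted p = 0.151). The 900 difference of 0.37 ± 0.14 (adjusted p = 0.0352) was lost without any 1 of the 6 arrays (0.34 to 0.40, adjusted p from 0.0541 to 0.0979). No time after the step to 600 differed from 300, with adjusted p from 0.157 to 0.784, but under median centring the 3 h difference was 0.42 in place of 0.26 (adjusted p = 0.0196).

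After the step to 900, Hsd11b2 read 5.09, 5.44 and 5.40 at 12 h and 5.96, 5.65 and 5.84 at 24 h. It rose by 0.51 ± 0.14 between them (adjusted p = 0.00595), and the rise was 0.40 (adjusted p = 0.0517) without replicate 1 at 12 h. The return gave 5.04, 5.05 and 5.69, with replicate 9 far above its partners. The fall of 0.45 ± 0.14 from 900 (adjusted p = 0.0122) was lost without replicate 1 (-0.34) or 2 (-0.35) of the return and was -0.67 without replicate 9.

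A further 10 genes of receptor chaperones, coactivators and steroid metabolism moved both ways. From 300 to 600, 1 rose and 2 fell (median -0.01), near the 27.1% called over all genes, and the 1 rise, of Ncoa1, was lost without any 1 of the 6 arrays. From 300 to 900, 3 rose and 2 fell (median -0.02), near the 42.4% over all genes, and after the return 4 rose and 4 fell from 900 (median 0.13), against 37.7%. Hsd11b1, whose enzyme regenerates active glucocorticoid, was 0.65 ± 0.10 lower at 600 than at 300 (adjusted p = 6.41e-06) and 0.65 ± 0.10 higher at 900 than at 600 (adjusted p = 1.02e-05). H6pd, which supplies that enzyme with its cofactor, was lower at 600 by 0.49 ± 0.08 (adjusted p = 2.33e-05). Ncoa1, a receptor coactivator, was 0.74 ± 0.11 higher at 900 than at 300 (adjusted p = 3.26e-06) and fell by 0.75 ± 0.11 after the return (adjusted p = 3.96e-06). Fkbp4, a chaperone of steroid receptors, was 0.45 ± 0.08 lower at 900 (adjusted p = 5.27e-05) and 0.57 ± 0.08 higher after the return (adjusted p = 2.53e-06).

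Tsc22d3 encodes GILZ, a leucine zipper protein induced by glucocorticoids and aldosterone. Its level was 8.13, 8.15 and 8.19 at 300, 9.07, 8.93 and 9.00 at 600, and 9.98, 9.86 and 9.91 at 900 mosmol/kg. The groups were separated by several times their spread. The change was 0.84 ± 0.09 to 600 (adjusted p = 5.71e-09) and 0.92 ± 0.09 from 600 to 900 (adjusted p = 1.67e-09), 3.39-fold from 300 to 900.

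After the step to 600, Tsc22d3 read 7.91, 8.04 and 8.18 at 3 h, 8.71, 8.83 and 8.72 at 12 h, 8.79, 8.66 and 8.63 at 24 h, and 8.55, 8.50 and 8.38 at 48 h. At 3 h it overlapped the 300 cultures (-0.11, 95% interval -0.29 to 0.07). It was then higher than at 300 by 0.60 ± 0.09 at 12 h (adjusted p = 2.83e-06), 0.54 ± 0.09 at 24 h (adjusted p = 2.16e-05) and 0.32 ± 0.09 at 48 h (adjusted p = 0.00704). No array at any of these times reached the 600 cultures, and the 48 h level was 0.52 ± 0.09 below them (adjusted p = 2.87e-05).

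Tsc22d3 after the step to 900 reached and passed the level of cultures grown there. It read 9.81, 9.95 and 10.19 at 12 h and 10.24, 10.11 and 10.25 at 24 h, above all arrays of the 600 cultures. The rise was 0.98 ± 0.09 at 12 h (adjusted p = 3.14e-10) and 1.20 ± 0.09 at 24 h (adjusted p = 9.54e-12). The 24 h excess over 900, 0.28 ± 0.09 (adjusted p = 0.0215), was lost without replicate 2 or 3 at 900 or replicate 1 or 9 at 24 h (0.25 to 0.28). The return gave 8.34, 8.51 and 8.50, a fall of 1.47 ± 0.09 (adjusted p = 1.00e-13) to 0.29 ± 0.09 above the 300 cultures (adjusted p = 0.00703).

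**Figure D3:**
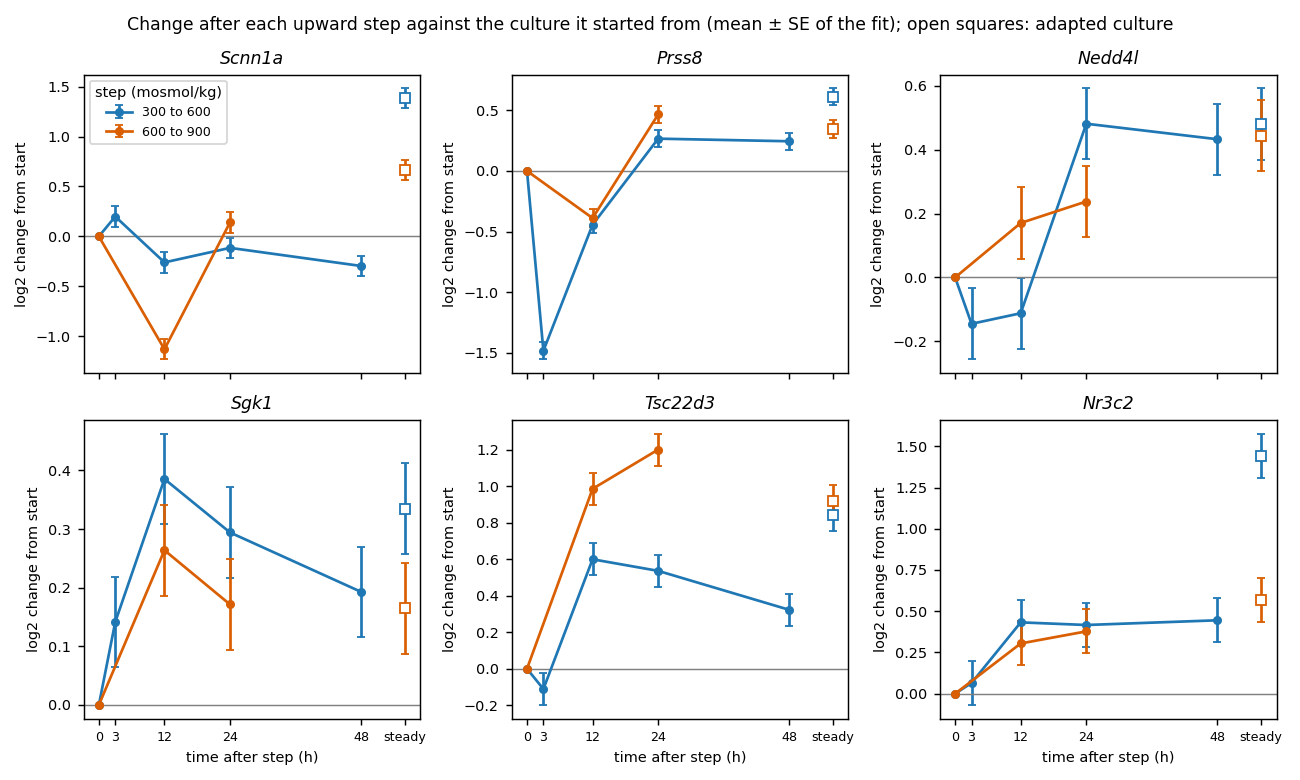
Log2 change (y axis, scaled per panel) of 6 genes against time in hours after the step from 300 to 600 (blue) and from 600 to 900 mosmol/kg (orange), each relative to the steady cultures the cells came from, as fitted change ± SE with 3 arrays per group. Open squares give the difference between the steady cultures. Scnn1a falls by 1.13 at 12 h of the step to 900, Prss8 falls by 1.48 at 3 h of the step to 600, and Tsc22d3 rises by 1.20 at 24 h of the step to 900.

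Both steps were compared at matched times by the difference of their changes, which was tested in limma over all genes. At 12 h, 2 of 10 genes differed against 13.4% of all genes. Scnn1a changed by -0.26 in the step to 600 and by -1.13 in the step to 900, a difference of -0.87 ± 0.14 (adjusted p = 7.20e-05). Its starting mean was 5.02 at 300, in the dim range below 5.05 where a fall can be understated, and 6.40 at 600. Tsc22d3 rose by 0.60 and 0.98, a difference of 0.39 ± 0.12 (adjusted p = 0.0358). The Tsc22d3 difference at 12 h was lost without any 1 of the 3 arrays at 300, replicate 2 or 3 at 600, replicate 1 or 3 at 12 h of the step to 600 or replicate 9 at 12 h of the step to 900, with values from 0.28 to 0.40, and the count was then 1. At 24 h, 1 of 10 differed against 12.9%, Tsc22d3, with rises of 0.54 and 1.20 and a difference of 0.66 ± 0.12 (adjusted p = 3.02e-04). For Prss8 the steps differed by 0.05 at 12 h and 0.20 at 24 h (adjusted p = 0.812 and 0.229).

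A further 14 corticosteroid-responsive genes changed in both directions. From 300 to 600, 7 rose and 3 fell (median 0.29 against 0.01 for all genes), against 27.1% of all genes called. From 300 to 900, 9 rose and 4 fell (median 0.44), against 42.4%. After the return, 2 rose and 8 fell from 900 (median -0.46 against -0.02), against 37.7%. Among the rises to 900, those with the smallest adjusted p were of Pdk4, a glucocorticoid-induced kinase of pyruvate dehydrogenase (2.30 ± 0.10, adjusted p = 6.57e-18), and Cdkn1c, a cell cycle inhibitor (1.80 ± 0.09, adjusted p = 1.77e-16). They fell after the return by 1.38 ± 0.10 and 1.58 ± 0.09 (adjusted p = 3.74e-12 and 2.84e-14). Errfi1, a feedback inhibitor of the EGF receptor, fell by 2.04 ± 0.10 to 900 (adjusted p = 3.15e-16). Edn1, the endothelin gene that aldosterone induces in collecting duct, was 1.78 ± 0.11 lower at 600 than at 300 (adjusted p = 2.39e-13). Mt2A, a metallothionein gene, rose by 1.65 ± 0.12 to 600 (adjusted p = 4.18e-12) and was 1.10 ± 0.12 higher 48 h after the step (adjusted p = 2.86e-08). Fkbp5, a receptor co-chaperone induced by glucocorticoids, was higher at 900 than at 600 by 0.73 ± 0.10 (adjusted p = 1.06e-06) and lower 24 h after the step to 600 by 0.91 ± 0.10 (adjusted p = 2.50e-08).

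Of 7 other genes of sodium and potassium transport in principal cells, 5 rose from 300 to 600 (median 0.51 against 0.01 for all genes) and 5 rose from 300 to 900 (median 0.61), where 13.7% and 20.2% of all genes were higher. After the return, 4 fell from 900 (median -0.41), against 18.5% lower over all genes. Fxyd4, the collecting duct regulator of the sodium pump also called CHIF, rose by 4.14 ± 0.21 to 600 and 5.00 ± 0.21 to 900 (adjusted p = 1.15e-15 and 4.26e-18). At 48 h of the step to 600 it differed from cultures grown at 600 by -3.71 ± 0.21 (adjusted p = 2.70e-14). Fxyd2, the gamma subunit of the pump, rose by 2.07 ± 0.08 to 600 and 3.24 ± 0.08 to 900 (adjusted p = 6.41e-18 and 6.11e-23), and it had already risen by 1.89 ± 0.08 at 24 h of the step to 600 (adjusted p = 2.14e-16). Kcnj16, a basolateral potassium channel, rose by 2.22 ± 0.14 to 600 (adjusted p = 1.31e-13) and by 2.03 ± 0.14 at 12 h of the step (adjusted p = 2.47e-12). From 12 to 24 h it fell, with a log2 change of -1.44 (adjusted p = 3.30e-09 in limma). At 24 h it was 0.59 ± 0.14 above the 300 cultures (adjusted p = 0.00170). Atp1b1, the pump's beta subunit, rose by 0.58 ± 0.07 at 12 h (adjusted p = 1.65e-07).

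**Figure D4:**
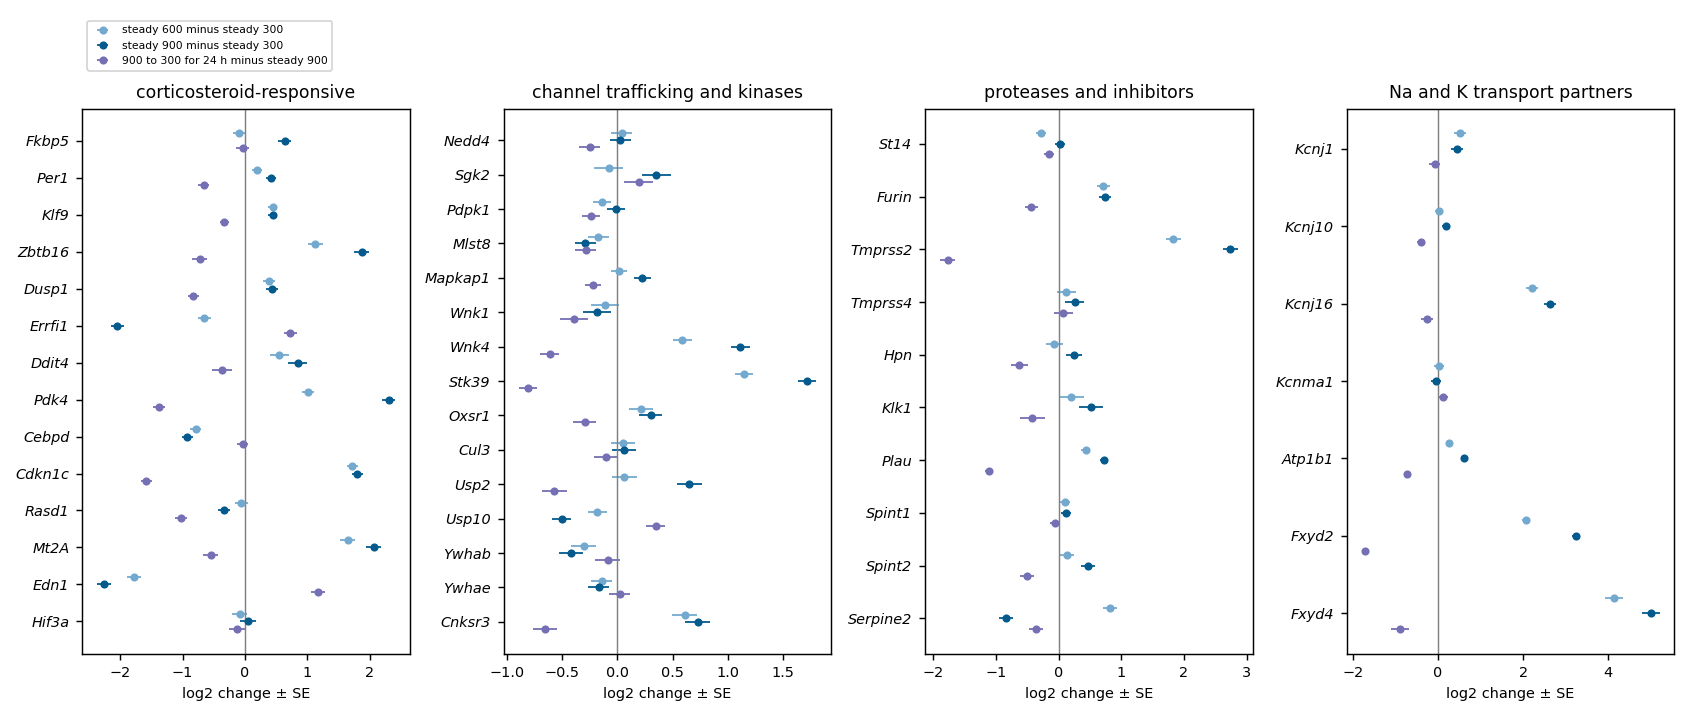
Log2 change ± SE (x axes) of the measured genes of 4 lists around the channel and its hormones, from 300 to 600, from 300 to 900 and from 900 back to 300 mosmol/kg for 24 h, 3 arrays per group. Fxyd4 at 5.00, Tmprss2 at 2.74 and Pdk4 at 2.30 have the largest rises to 900 of their lists, and Edn1 and Errfi1 lie on the lower side in both steady comparisons.

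Over the 10 group means, the highest correlations among the members were 0.86 for Nr3c2 with Tsc22d3, 0.85 for Nedd4l with Prss8 and 0.83 for Nedd4l with Tsc22d3. Scnn1a was most like Nr3c2 among them, at 0.82. The genes most like each member were drawn from 10679 candidates that varied among the groups. For Scnn1a they were Zbtb16 (r = 0.98), As3mt (0.98) and RT1-M6-2 (0.97), and Zbtb16 also stands on the list of corticosteroid-responsive genes. For Nr3c2 they were Rab17 (0.99), Rhpn2 (0.99) and Nr1d2 (0.98), for Tsc22d3 Slc45a3, Ilf2 and Lmbrd1 (0.98 each), and for Prss8 Ap5s1 (0.98), Tomm40l (0.97) and Cln8 (0.97). For Sgk1 they were Arhgef12 (0.98), Abcc5 (0.97) and Ogt (0.96), and for Nedd4l Epb41l4a (0.98), Ctc1 (0.97) and Sesn1 (0.97). The nearest genes to Scnn1b, Scnn1g, Nr3c1 and Hsd11b2 had r of 0.92, 0.94, 0.90 and 0.95. With 10 points and so many candidates, such values are a description of these groups.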

How the data were processed

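The authors deposited log2 expression values, made with RMA, as the submitters' processing notes list it. This method removes background, brings the arrays to 1 common scale and combines probes into a probe set value, and no version of it is stated in the labels. The table held 29170 probe sets, of which 15310 had exactly 1 gene symbol in the platform annotation, 323 had several and 13537 had none. For each gene the probe set with 1 symbol and the highest mean over the 30 arrays was used, which gave 14506 genes. The symbols of all 10 members were found in a GRCr8 gene table. Since the array's build is not stated, no probe position is given.

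The 10 groups were fitted together with limma 3.58.1 in R 4.3.3 (lmFit and eBayes, 1 mean per group), with Benjamini-Hochberg adjustment over all genes. The fit was tested on simulated data. The members and gene lists were chosen with earlier results of these data known. Besides the members, up to 3 genes of a list were named per comparison, those with the smallest adjusted p past 0.05. Per member, 3 genes were named by Pearson r over the 10 group means among genes with an F-test adjusted p below 0.05, leaving out symbols starting with LOC, RGD or MGC. The markers Aqp2 and Epcam were also named. The counts of the lists, and values where a gene was followed to another comparison, come from the same fit. The alternatives were quantile normalization, median centring, cyclic loess, a filter on dim genes, averaged probe sets of a gene, array weights, a trended and robust variance, a fit of the compared arrays only, the replicate number as a block, and leaving out each array in turn. Precision is limited by having 3 arrays in a group.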

Additional observations from a re-analysis of the deposited data

Results flagged for a closer look

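The change of Scnn1a at 12 h differed between the step to 900 and the step to 600 by -0.87 ± 0.14 on the log2 scale (adjusted p = 7.20e-05 in limma), and it was lower than its starting culture on 3 of 3 arrays after the step to 900. The change of Tsc22d3 differed between the steps by 0.39 ± 0.12 at 12 h (adjusted p = 0.0358) and by 0.66 ± 0.12 at 24 h (adjusted p = 3.02e-04), with a rise on 3 of 3 arrays in each step. Both steps added the same osmolality. The osmolality a step started from, its relative size and the marker levels of the starting culture differ together and cannot be told apart. The replicate numbering of the groups after the step to 900 differs with them. Principal cell markers averaged 6.12 to 6.27 at 300 and 8.96 to 9.38 at 600, fibroblast markers 8.43 to 8.47 and 7.85 to 7.91, and leukocyte markers 8.19 to 8.24 and 7.09 to 7.18. For Scnn1a the starting level differed as well. Its mean at 300, 5.02, was in the dim range below 5.05 where a fall can be understated, while its mean at 600 was 6.40. The part of this in the difference was not tested.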

How the results depend on the processing

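Of 190 changes of members tested, 78 were called, 57 of which held in every alternative and 21 of which were lost in 1 or more. The largest of the lost calls had a log2 change of 0.51. A further 31 that were not called passed somewhere. No called change turned its sign, and 92 alternative values of changes called in neither setting did. The count of members called at 3 h of the step to 600, 2 against the 300 cultures, was 5 under median centring and 1 with only the compared arrays, and 1 to 4 when an array was left out. The 24 to 48 h count of 0 was 1 under array weights. Under cyclic loess the counts were 8 at 12 h of the step to 900, in place of 5, and 5 from 12 to 24 h, in place of 3. The other counts that moved by over 1.5 times when 1 array was left out ranged over 3 to 5 at 48 h of the step to 600, 2 to 3 at 24 h of the step to 900 against 600 and 1 to 3 against 900, 3 to 5 after the return against 300, and 1 to 2 for the difference of steps at 12 h. With only the compared arrays, that difference also gave 1 gene, and the 24 h difference gave 2 under quantile normalization. Arrays of equal replicate number showed no general shared deviation (114 pairs across groups, median r of deviations 0.012, from -0.126 to 0.238, against -0.008 for unequal numbers). A median over all pairs cannot show whether some groups shared cultures, and the labels do not say. With the replicate number as a block, 1 member in place of 2 differed from the 900 cultures at 24 h and 1 in place of 2 differed between the steps at 12 h, where Tsc22d3 had 0.33 (adjusted p = 0.0736). Under array weights the count of all genes called was 4994 at 24 h and 5130 at 48 h of the step to 600 in place of 3242 and 3128, 975 from 24 to 48 h in place of 405, 4264 at 24 h of the step to 900 against 900 in place of 2654, and 3647 and 3468 for the differences of steps in place of 1947 and 1877, the last being 2976 with only the compared arrays. Of 230 changes of named list genes, 26 were lost in some alternative and 0 turned sign, and 81 of 170 list counts moved by over 1.5 times in some alternative. The cause of these moves was not tested. Low signal over background limits Scnn1b and Scnn1g, which a filter on dim genes removed.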
